A study of Rattus norvegicus with 72 samples.

Results

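Gene expression was compared between mammary gland of pregnant rats flown in microgravity and mammary gland of pregnant rats kept in the vivarium, over all 31042 probe sets of the deposited table. The 8 arrays were chosen by their labels alone, out of 72 arrays in the series: 4 spaceflight arrays (FLT, letters A to D) and 4 vivarium control arrays (VIV, letters A to D). A further 4 arrays of a flight control group (FDS), also pregnant mammary gland, lie in the same set and are given beside them. The other arrays cover 3 tissues (mammary gland, liver, fat) in pregnancy and lactation, at standard gravity and in hypergravity. All 3 groups were pregnant Rattus norvegicus with no further treatment named, and the labels used here give no strain, age, gestation day, time of tissue collection or number of animals behind an array. What separates FDS from VIV beyond those names is not stated, so FDS is used only as a second set of values. Nothing in the labels says that the arrays of a group came from separate animals, so every p-value measures the spread between these arrays. Values are log2 signals, and a difference of 1 is a doubling. Where several probe sets name 1 gene, the brightest stands for it. Entrez identifiers and positions (RefSeq, GRCr8) are given for the leading genes.

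In pregnancy the mammary epithelium branches into alveoli, whose cells make milk proteins and milk fat under prolactin, progesterone and glucocorticoids. The gland lies in a fat pad under the skin and next to body wall muscle, so a dissected piece can carry RNA of either. Like most tissues it runs a circadian clock, in which BMAL1 with CLOCK or NPAS2 switches on the Per, Cry and Nr1d genes and the output factors Dbp, Tef and Hlf, and the products of several of these genes act back on the loop.

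The 12 arrays had medians of 4.87 to 5.02 on the log2 scale. Mammary identity was clear: of 9 milk protein genes measured, 8 lay above the array median on every FLT and VIV array, and 14 or 15 of 16 luminal epithelial markers did. Several arrays carried markers of other tissues. The mean of 30 skeletal muscle markers was 4.08 to 4.23 on the FLT arrays, 4.11 to 4.45 on the FDS arrays, and 6.86, 4.15, 7.04 and 4.15 on VIVA, VIVB, VIVC and VIVD. On FLTC the mean of 8 keratinocyte markers was 7.04 and on FLTB it was 5.06, against 4.29 and 4.30 on FLTD and FLTA and 4.23 to 4.34 on the VIV arrays. FLTB also had the highest mean of 13 hepatocyte markers, 4.70, against 3.32 to 3.45 on the other FLT arrays and 3.32 to 3.74 on the VIV arrays. Lymphocyte and plasma cell markers stood highest on FDSB, with means of 7.36 and 9.83. The FDS arrays differed more among themselves than those of the other groups. Root mean square differences of an array from the mean of the other arrays of its group were 0.269 to 0.309 in FLT, 0.342 to 0.511 in FDS and 0.263 to 0.313 in VIV.

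**Figure D1:**
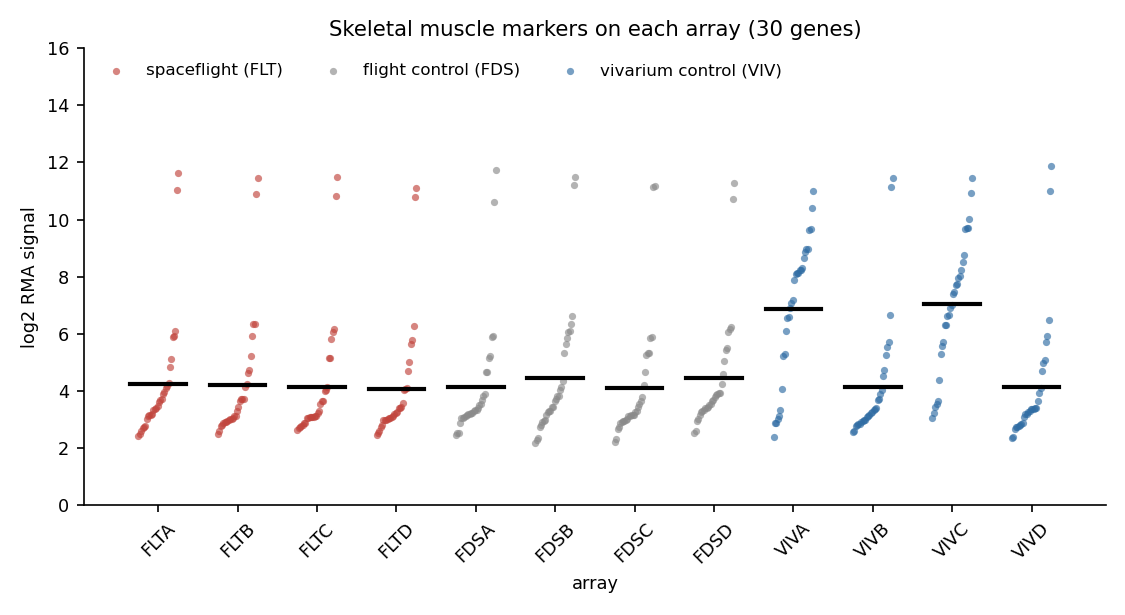
Log2 signal of 30 skeletal muscle markers on each of 12 arrays, with 1 point per gene and a black bar at the mean; FLT arrays are left, FDS arrays in the middle and VIV arrays right. The bars of VIVA and VIVC stand at 6.86 and 7.04, and those of the other 10 arrays between 4.08 and 4.45.

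Microgravity differed from the vivarium in few probe sets, more of them higher than lower, and 2 of those were muscle-linked as defined further on. In limma's moderated test over the 12 arrays with Benjamini-Hochberg adjustment, 153 of 31042 probe sets (0.493%) had an adjusted p under 0.05, of which 99 rose (0.319%) and 54 fell (0.174%). Without adjustment 2951 probe sets (9.51%) had p under 0.05. Of the 153, 107 had a single gene symbol and 46 had none. By brightest probe set, 91 of 14217 genes changed (0.64%), 59 rising (0.415%) and 32 falling (0.225%). In all 91 the FLT and VIV arrays did not overlap, a pattern found in 1577 of all genes (11.1%), 678 above (4.77%) and 899 below (6.32%). The changes among the 91 ran from 0.55 upward in size, with a median size of 1.08, and 50 were of at least 1 log2 unit. The median difference over all genes was -0.02. These counts moved with the arrays used: leaving out 1 array at a time gave 38 (without FLTC) to 83 for the 8 FLT and VIV arrays, and 130 (without FDSC) to 244 (without FDSA) for the FDS arrays, of which FDSB gave 231. The 8 FLT and VIV arrays alone gave 414, and array weights 749, of which 390 were higher and 359 lower.

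**Figure D2:**
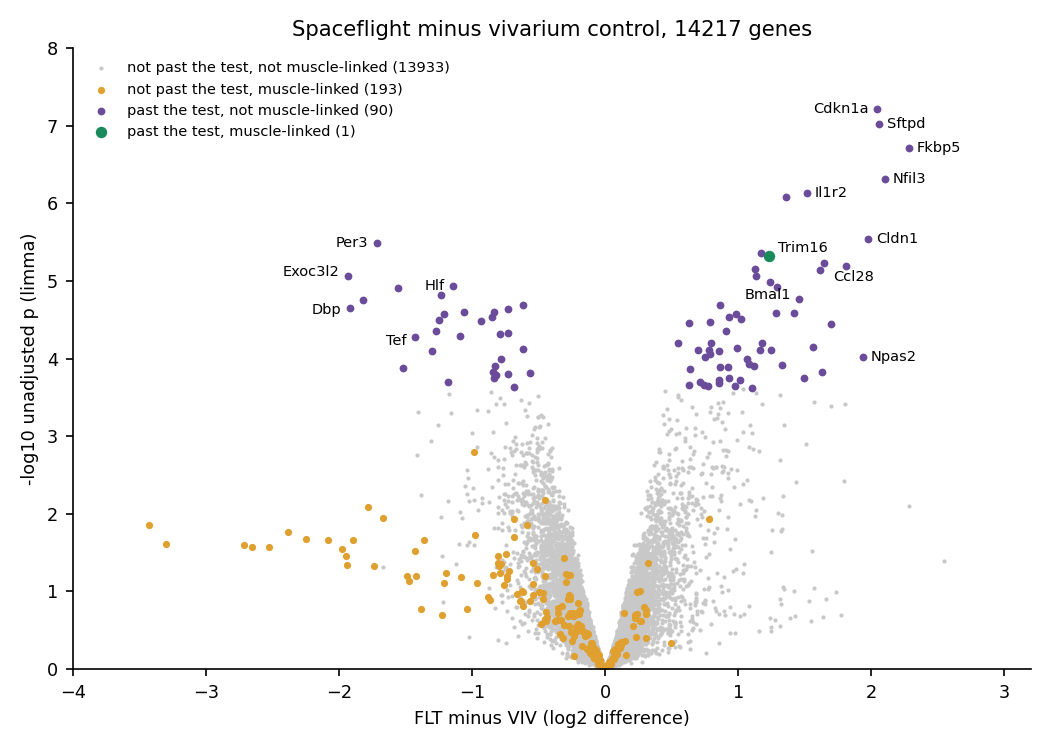
Difference between FLT and VIV (horizontal, log2) and −log10 of the unadjusted limma p (vertical) for 14217 genes, each a point. The 91 genes past the test lie at the top on both sides; of the muscle-linked genes in orange and green, Trim16 is the single one among them.

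Muscle genes were separated from the rest with arrays outside the comparison. A probe set was called muscle-linked where, over 19 adipose arrays of the other groups, its deviation from its group mean followed the mean of the muscle markers with a correlation of at least 0.8 and a slope of at least 0.3. This held for 316 probe sets (1.02%), whose 194 genes included 27 of the 30 muscle markers. Myh4, a fast muscle myosin heavy chain, had signals of 2.48, 2.48, 2.77 and 2.52 on FLTA to FLTD, against 8.86, 2.57, 6.91 and 2.77 on VIVA to VIVD. VIVB and VIVD lay at the level of the flight arrays, and VIVA and VIVC far above it. The difference was -2.72 ± 1.07 (SE; limma adjusted p = 0.407) with all arrays and -0.11 without VIVA and VIVC. Ckm, the muscle creatine kinase, had 3.17, 2.93, 3.13 and 3.18 in FLT, against 7.90, 3.27, 7.40 and 3.36 in VIV. Its difference of -2.38 became -0.21 without those arrays. The same arrays stood out for Myl11, a fast myosin light chain (-2.65 and -0.003), Tnnt3, fast troponin T (-2.09 and -0.18), Pvalb, the calcium buffer parvalbumin (-2.25 and -0.11), Acta1, skeletal alpha-actin (-1.78 and -0.40), Atp2a1, the sarcoplasmic calcium pump (-1.98 and 0.01), and Mb, myoglobin (-1.20 and 0.20), each given with all arrays first and without VIVA and VIVC second.

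Of the 30 muscle markers 0 passed the test, beside 0.64% of all genes. Their median difference was -1.45 with all arrays and 0.02 without VIVA and VIVC, and none of the limma adjusted p-values was under 0.253. As VIVA and VIVC lay far above VIVB and VIVD, the VIV spread was wide (Myh4 SD 3.117 in VIV, 0.141 in FLT). Such genes could hardly pass. Not every muscle marker followed VIVA and VIVC. Myh7, the slow myosin heavy chain, had 3.02, 3.06, 2.86 and 2.80 in FLT, against 2.88, 2.93, 3.04 and 2.79 in VIV. Myh1 lay at 10.80 to 11.03 in FLT and 10.92 to 11.13 in VIV and was not muscle-linked. Over all 194 muscle-linked genes, 150 had a negative difference with a median of -0.21, and 26 were lower in FLT by at least 1 log2 unit. The FLT arrays lay above the VIV arrays without overlap in 3 of them (1.55%) and below in 11 (5.67%). Without VIVA and VIVC the median was 0.05 and 1 gene was lower by that much, Ano5, a calcium-activated membrane protein of muscle (-1.49 with all arrays, limma adjusted p = 0.572, and -1.50 without those arrays). Of the 316 muscle-linked probe sets 2 passed the test (0.633%), 1 in each direction (0.316% each), beside 151 of the 30726 others (0.491%). One had no gene symbol and was lower; it lost its call without VIVA and VIVC. The other was Trim16, a tripartite motif protein with a role in damaged membranes and epithelial differentiation. Its muscle correlation was at the cut of 0.8. With the link taken over mammary arrays, 0 probe sets past the test were muscle-linked, so Trim16 was not. Trim16 had 9.79, 9.47, 9.56 and 9.77 in FLT, against 8.35, 8.35, 8.64 and 8.31 in VIV, a rise of 1.23 ± 0.17 (SE; limma adjusted p = 0.00884) and 1.32 without VIVA and VIVC (adjusted p = 0.078). On this probe set it was higher in FLT than on the muscle-rich and the muscle-poor VIV arrays alike. The other Trim16 probe set had 0.51 and did not pass (limma adjusted p = 0.515). In a bulk piece of tissue, fewer cells of a type and less RNA per cell cannot be told apart.

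Without VIVA and VIVC the differences of the 91 genes past the test, whose direction is fixed by the lack of overlap, moved by a median of 0.067 and at most 0.428. With only 2 VIV arrays left the test itself called 6 of them (Fkbp5, Nfil3, Sftpd, Cdkn1a, Ccl28 and Ggt1) and 11 probe sets in all. A fit of the 6 remaining FLT and VIV arrays alone called 48 probe sets, an alternative chosen after seeing the data.

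**Figure D3:**
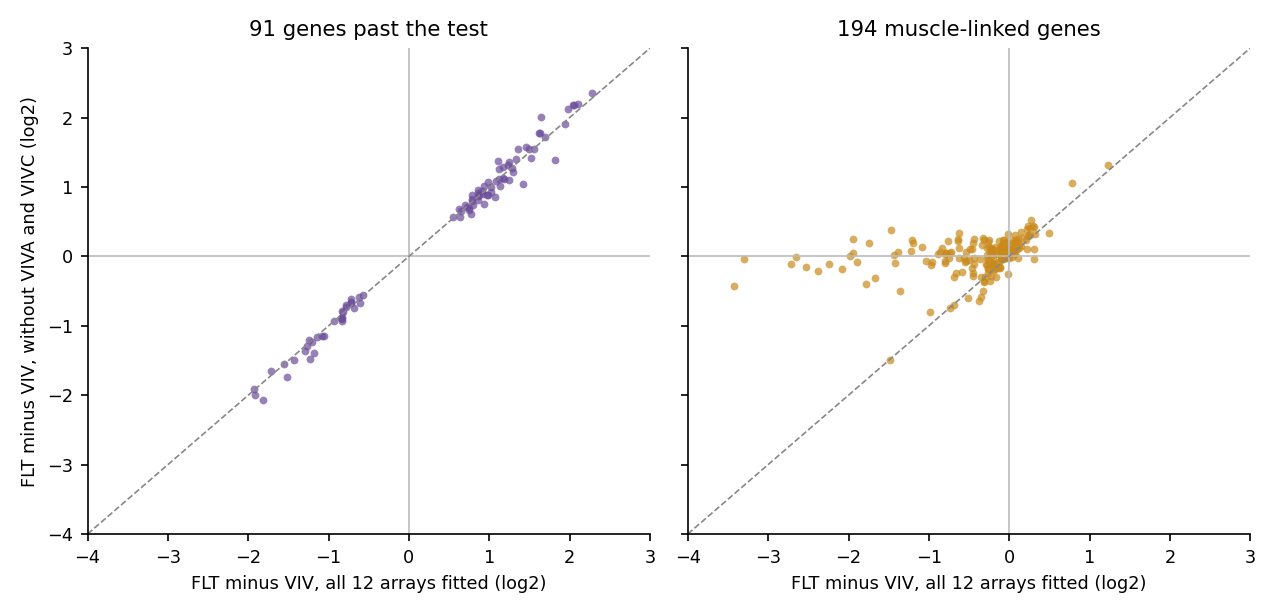
Difference between FLT and VIV with all arrays (horizontal, log2) against that without VIVA and VIVC (vertical, log2), for the 91 genes past the test (left) and the 194 muscle-linked genes (right); the dashed line marks equal values. The 91 genes lie along the dashed line, moved by at most 0.428, while muscle-linked genes at -1 and below lie mostly near 0 on the vertical axis.

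Clock genes changed in both directions. Of 19 measured, 3 rose (Nfil3, Npas2 and Bmal1), 4 fell (Dbp, Per3, Tef and Hlf) and 12 did not pass, beside 0.64% of all genes passing. Among the activators, Npas2, the partner of BMAL1 that can stand in for CLOCK (Entrez 316351, chromosome 9, 48959225 to 49138036), had signals of 10.19, 10.05, 10.22 and 10.57 in FLT, 9.64, 9.65, 10.29 and 8.97 in FDS, and 9.24, 8.58, 7.33 and 8.13 in VIV. FLT and VIV did not overlap, and FDSC reached the flight level. The rise over VIV was 1.94 ± 0.35 (SE; limma adjusted p = 0.0304), or 3.83-fold. Bmal1 itself (Entrez 29657, chromosome 1, 176766222 to 176864741) was named after its values were seen. It had 4.80, 4.28, 5.08 and 5.57 in FLT, 4.20, 4.36, 4.47 and 4.19 in FDS, and 3.62, 3.57, 3.58 and 3.13 in VIV, a rise of 1.46 ± 0.22 (SE; adjusted p = 0.0139). Clock, its usual partner, had 8.26 to 8.56 in FLT and 8.17 to 8.27 in VIV (difference 0.23, adjusted p = 0.682).

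Nfil3, a repressor that binds the same D-box sites as DBP, TEF and HLF (Entrez 114519, chromosome 17, 12432376 to 12447605), was high on every flight array. Its signals were 8.62, 8.90, 9.14 and 8.98 in FLT, 8.07, 7.74, 7.75 and 7.95 in FDS, and 6.27, 6.90, 7.55 and 6.51 in VIV. It rose by 2.10 ± 0.23 (SE; limma adjusted p = 0.00254), 4.29-fold. The 3 activating D-box factors all fell. Dbp (Entrez 24309, chromosome 1, 105312256 to 105317205) had 6.79, 6.99, 6.83 and 6.68 in FLT, 6.45, 7.33, 6.88 and 8.32 in FDS, and 8.80, 8.65, 8.53 and 8.98 in VIV. It was 3.78-fold lower in FLT, a change of -1.92 ± 0.30 (SE; limma adjusted p = 0.0157). Every FDS array also lay below every VIV array for Dbp.

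Tef (Entrez 29362, chromosome 7, 115197180 to 115221930) had 7.51, 7.11, 7.16 and 7.10 in FLT, 6.29, 6.95, 6.79 and 7.80 in FDS, and 8.67, 8.73, 8.51 and 8.70 in VIV, a change of -1.43 ± 0.24 (SE; limma adjusted p = 0.0222). Hlf (Entrez 690286, chromosome 10, 75651320 to 75708979) had 9.14, 8.96, 9.20 and 8.99 in FLT, 8.64 to 9.47 in FDS, and 10.20, 10.05, 10.19 and 10.40 in VIV, a change of -1.14 ± 0.17 (adjusted p = 0.0112). In both, FLT and FDS overlapped and VIV stood apart. Of 3 other Hlf probe sets, 2 fell by 1.28 and by 1.22 and the third did not pass (0.06); of 2 other Tef probe sets, 1 fell by 1.10 and the other had -0.39. Per3, a period gene (Entrez 78962, chromosome 5, 166740914 to 166778243), had 6.59, 6.29, 6.18 and 6.54 in FLT, 6.75, 6.83, 7.01 and 7.93 in FDS, and 8.02, 7.99, 8.34 and 8.10 in VIV. It fell by 1.72 ± 0.22 (SE; limma adjusted p = 0.00784), although its other probe set had -0.02.

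The remaining clock genes did not pass. Nr1d1, the repressor REV-ERB alpha, had 6.31, 6.65, 6.85 and 6.37 in FLT, against 8.14, 7.18, 6.94 and 7.74 in VIV (difference -0.95, limma adjusted p = 0.263), and Rora, its activating counterpart, had 5.33, 6.24, 6.19 and 6.07 in FLT, against 5.20, 5.05, 4.73 and 4.89 in VIV (0.99, adjusted p = 0.107). The other Rora probe set had -0.2. Per2 overlapped, with 9.19 to 9.78 in FLT and 9.13 to 10.42 in VIV (-0.20). Over the 19 genes, 4 lay above and 8 below VIV without overlap, beside 4.77% and 6.32% of all genes. Leaving out single arrays kept the calls of Nfil3, Per3 and Hlf. Npas2 lost its call without any 1 of 7 arrays (the FLT arrays and VIVB, VIVC and VIVD), Tef without any 1 of 7 (FLTB, FLTC, FLTD and the VIV arrays), Dbp without any of 4 (FLTC, FLTD, VIVA and VIVD) and Bmal1 without FLTC or VIVD, with adjusted p of at most 0.108, 0.0837, 0.0638 and 0.0565 for these genes in the same order. Without VIVA and VIVC the 7 differences ran from -1.99 (Dbp) to 2.20 (Nfil3) and 1 of the 7, Nfil3, stayed under 0.05 in the 10-array fit; in the 6-array fit 6 did, all but Bmal1. The labels give no collection time, and its part in these differences was not tested.

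**Figure D4:**
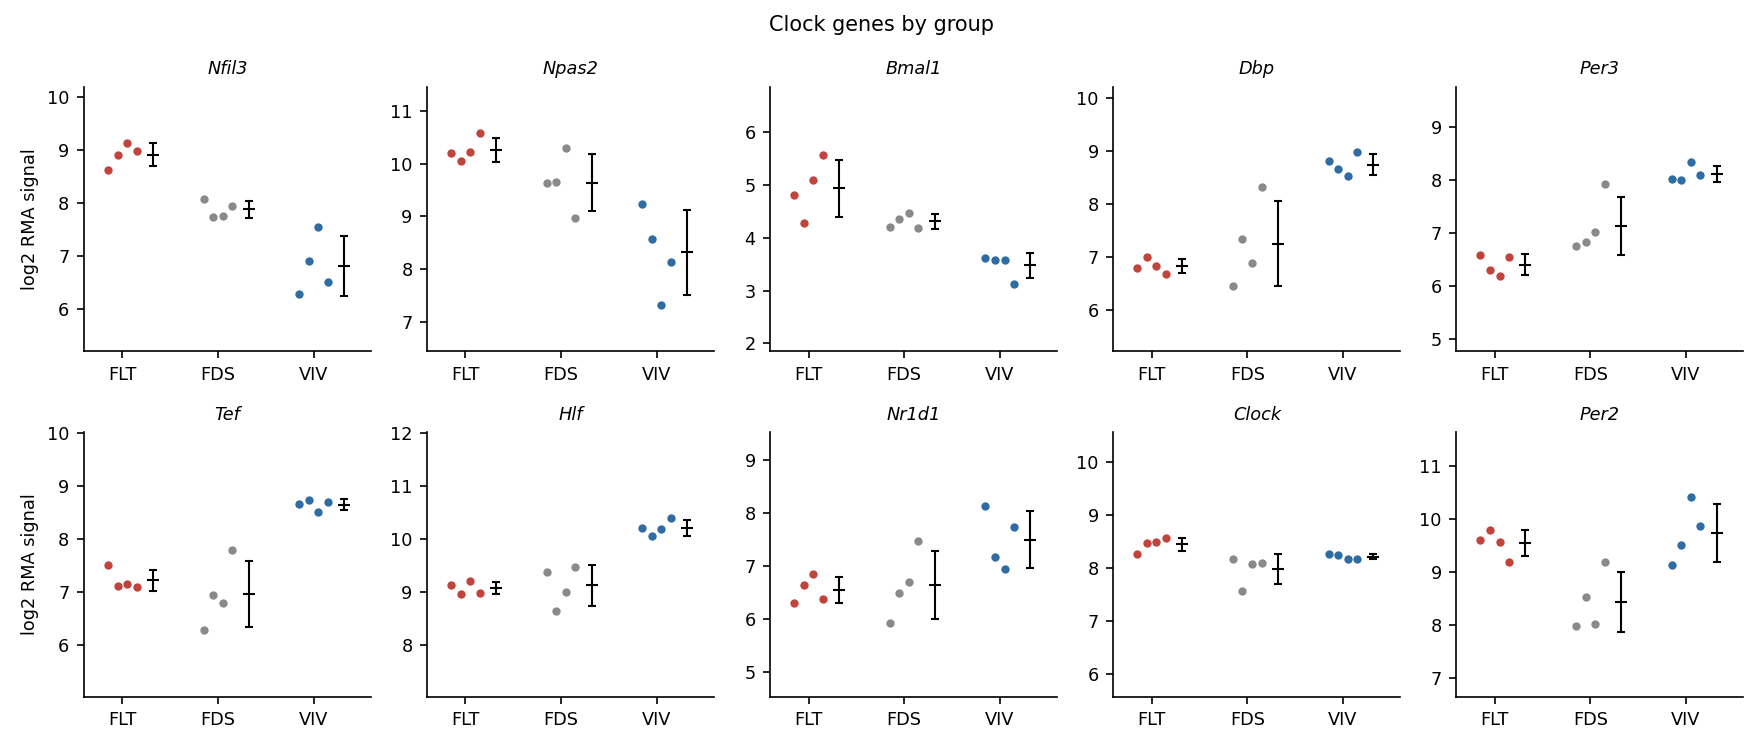
Log2 signal of 10 clock genes on the 4 FLT, 4 FDS and 4 VIV arrays (points), with mean and SD beside each group; every panel spans the same range. FLT lies above VIV for Nfil3, Npas2 and Bmal1 and below it for Dbp, Per3, Tef, Hlf and Nr1d1, while Clock and Per2 overlap or nearly touch.

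The sequence before an annotated transcript start of 2 of these genes is shown because each holds an exact match to a known clock-factor motif; they were chosen after the search. The 250 bases were taken from RefSeq (GRCr8), and both windows end inside the gene spans given above, so the starts they precede are not the outermost ones of these genes; 6 of the 7 changed clock genes had such a window, and Hlf did not. Capitals mark TAGGTCA, the site of ROR and REV-ERB factors, in Bmal1 (chr1:176766078-176766327, forward strand, 16 to 10 bases before the start), and CACGTG, the E-box bound by BMAL1 dimers, in Tef (chr7:115206577-115206826, forward strand, 198 to 193 bases before the start).
Bmal1: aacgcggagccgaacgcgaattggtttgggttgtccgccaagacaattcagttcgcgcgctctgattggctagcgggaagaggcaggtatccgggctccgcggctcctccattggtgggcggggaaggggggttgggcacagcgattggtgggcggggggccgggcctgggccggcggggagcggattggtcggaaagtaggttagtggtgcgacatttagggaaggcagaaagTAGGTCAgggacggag
Tef: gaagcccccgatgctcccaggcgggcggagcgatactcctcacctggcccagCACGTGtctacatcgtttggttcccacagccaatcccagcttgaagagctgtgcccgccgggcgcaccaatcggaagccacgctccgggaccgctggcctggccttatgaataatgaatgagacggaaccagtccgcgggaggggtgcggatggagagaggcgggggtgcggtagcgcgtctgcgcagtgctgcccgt
Searched on both strands, TAGGTCA was in 2.26% of 33469 windows in the RefSeq table and CACGTG in 5.59%. Among windows of the 19 clock genes the E-box was in Tef, Nr1d1, Bhlhe40 and Bhlhe41 and the TAGGTCA site in Bmal1. The D-box TTATGTAA, in 0.828% of all windows, was in Per2 and in none of the windows of the 67 of 91 changed genes that had one.

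Of 18 glucocorticoid-responsive genes measured, 3 rose (Fkbp5, Cdkn1a and Mt2A) and 15 did not pass, beside 0.415% of all genes rising. Their median difference was 0.21, beside -0.02 for all genes. Fkbp5, a co-chaperone of steroid receptors that the glucocorticoid receptor induces (Entrez 361810, chromosome 20, 6458931 to 6577227), had 9.07, 9.33, 9.80 and 9.58 in FLT, 7.10, 8.17, 7.10 and 7.57 in FDS, and 7.08, 6.97, 7.38 and 7.22 in VIV. All flight arrays lay above all arrays of both control groups. The rise over VIV was 2.28 ± 0.23 (SE; limma adjusted p = 0.00202), 4.86-fold and the largest among the 91 genes, and a further Fkbp5 probe set rose by 2.25. Cdkn1a, the cell cycle inhibitor p21 and also a p53 target (Entrez 114851, chromosome 20, 7150820 to 7161373), had 9.31, 8.89, 9.36 and 9.24 in FLT, 7.51, 8.18, 7.52 and 7.62 in FDS, and 6.96, 7.02, 7.60 and 7.03 in VIV. It rose by 2.05 ± 0.19 (SE; limma adjusted p = 0.00146), 4.13-fold, though its other probe set had 0.12. Mt2A, a metal-binding metallothionein (Entrez 689415, chromosome 19, 10837934 to 10838708), had 13.20, 13.30, 13.31 and 13.22 in FLT, against 12.28, 12.59, 12.68 and 12.52 in VIV. It rose by 0.74 ± 0.15 (limma adjusted p = 0.0466).

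Other members did not pass. Mt1, its neighbour on chromosome 19, had 12.85 to 12.89 in FLT and 12.32 to 12.61 in VIV, without overlap (0.38, limma adjusted p = 0.187). Sgk1, a kinase gene, had 11.88 to 12.21 in FLT and 11.34 to 12.16 in VIV (0.30, adjusted p = 0.659), and Tsc22d3, the gene of the glucocorticoid-induced leucine zipper, 9.79 to 10.47 and 9.33 to 10.41 in FLT and VIV (0.12, adjusted p = 0.969). Of the p53 and apoptosis list, Cdkn1a was the single gene of 18 that passed, beside 0.64% of all genes. Fkbp5 and Cdkn1a kept their calls without any single array and without VIVA and VIVC (adjusted p = 0.0341 and 0.00506), while Mt2A lost its call without any 1 of the 8 FLT and VIV arrays (adjusted p up to 0.151). The palindrome bound by the glucocorticoid receptor (AGAACA and TGTTCT with any 3 bases between them) was in 0.012% of all 250-base windows and in none of those of the list.

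Of 19 fatty acid synthesis genes 2 rose, Slc25a1 and Acaca, and 17 did not pass, beside 0.415% of all genes rising; 7 lay above VIV without overlap, beside 4.77% of all genes. Slc25a1 carries citrate out of mitochondria as the carbon source for fatty acids (Entrez 29743, chromosome 11, 96560054 to 96563071). It had 7.25, 7.37, 7.74 and 7.28 in FLT, 6.55, 6.06, 6.56 and 6.73 in FDS, and 6.12, 6.29, 6.19 and 6.50 in VIV, a rise of 1.13 ± 0.16 (SE; limma adjusted p = 0.0105). Acaca, acetyl-CoA carboxylase, makes malonyl-CoA, the step that commits carbon to fatty acids (Entrez 60581, chromosome 10, 69511627 to 69773888). It had 11.40, 11.79, 11.83 and 11.57 in FLT, 10.71, 10.36, 10.99 and 10.54 in FDS, and 10.87, 10.54, 10.66 and 10.87 in VIV, a rise of 0.91 ± 0.15 (adjusted p = 0.0212), and 0.63 by its other probe set (adjusted p = 0.112). Flight arrays lay above both control groups for both genes.

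Gpat4, which adds the first acyl chain in triglyceride synthesis, was the single milk fat gene of 16 that passed, beside 0.64% of all genes. It had 9.04, 9.32, 9.46 and 9.35 in FLT, 8.75, 8.07, 8.64 and 8.72 in FDS, and 8.37, 8.27, 8.44 and 8.16 in VIV, a rise of 0.99 ± 0.16 (SE; limma adjusted p = 0.0158), and its other probe set rose by 0.94. Fasn, fatty acid synthase, had 11.92 to 12.05 in FLT and 11.29 to 11.61 in VIV (0.57, adjusted p = 0.059), while its other probe set rose by 0.98 (adjusted p = 0.0101). Elovl6, a fatty acid elongase, had 7.59, 6.95, 6.70 and 6.14 in FLT, against 4.54, 6.23, 5.06 and 4.76 in VIV (1.70, adjusted p = 0.0628), and Lpin1, a phosphatidate phosphatase, 1.34 (adjusted p = 0.0851). The mean of 20 adipocyte markers was 8.53, 8.36, 8.61 and 8.25 in FLT, against 7.69, 8.25, 8.20 and 8.47 in VIV, and its part in these results was not tested. Acaca is also the single member of that list that passed, beside 0.64% of all genes. Slc25a1 kept its call without any single array. Acaca lost it without any 1 of 6 arrays (FLTB, FLTC, FLTD, VIVB, VIVC and VIVD) and Gpat4 without any 1 of 5 (the same but VIVC; adjusted p up to 0.0837 and 0.0666), and without VIVA and VIVC the 3 differences were 1.01, 0.94 and 1.08, none under 0.05 in the 10-array fit (adjusted p = 0.169, 0.181 and 0.139).

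**Figure D5:**
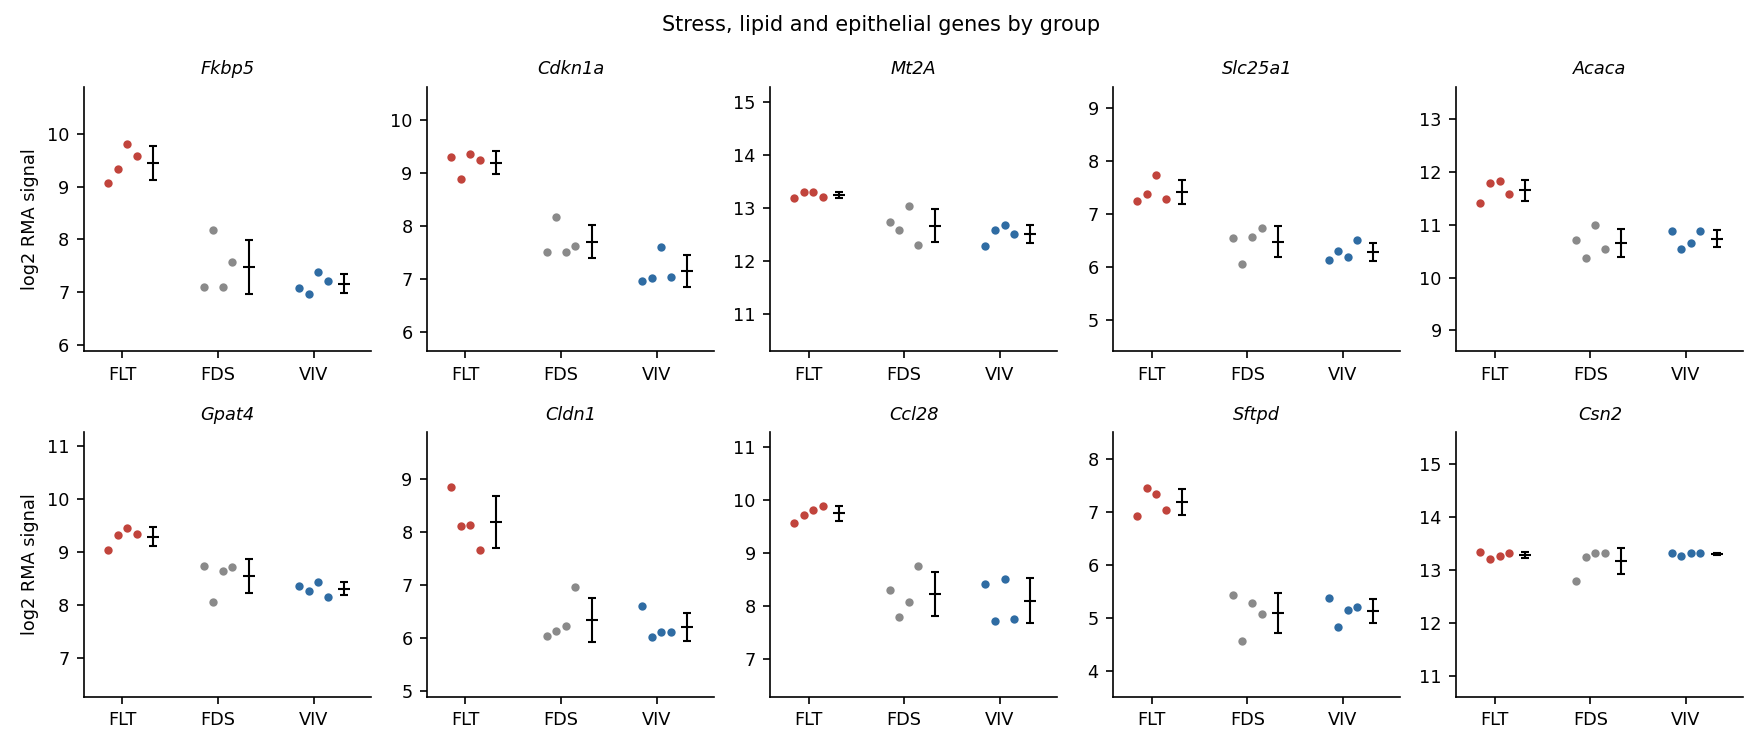
Log2 signal of 10 genes on the 4 FLT, 4 FDS and 4 VIV arrays (points), with mean and SD beside each group; every panel spans the same range. The 4 FLT arrays lie above all VIV arrays in the first 9 panels, and Csn2, the beta-casein gene, lies near 13.3 on all FLT and VIV arrays. Signals this high may understate a change.

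The largest rises outside these lists included the following single genes. Sftpd encodes surfactant protein D, a secreted lectin that binds microbes (Entrez 25350, chromosome 16, 17080575 to 17093047). It had 6.92, 7.46, 7.34 and 7.04 in FLT, 5.43, 4.56, 5.29 and 5.07 in FDS, and 5.37, 4.82, 5.15 and 5.20 in VIV, a rise of 2.06 ± 0.19 (SE; limma adjusted p = 0.00146), 4.16-fold. Cldn1, a tight junction claudin (Entrez 65129, chromosome 11, 87926376 to 87941533), had 8.86, 8.11, 8.14 and 7.67 in FLT, 6.04, 6.14, 6.23 and 6.96 in FDS, and 6.60, 6.03, 6.11 and 6.12 in VIV. It rose by 1.98 ± 0.25 (limma adjusted p = 0.00743), 3.93-fold. Of its 2 other probe sets 1 rose by 2.06 and the other had 0.53. It was the single tight junction gene of 11 that passed, beside 0.64% of all genes. Cldn4 had 0.50 (adjusted p = 0.327) and Cldn7 0.39 (adjusted p = 0.446).

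Ccl28, an epithelial chemokine that draws IgA-secreting cells to mucosae and mammary gland (Entrez 114492, chromosome 2, 53334071 to 53358709), had 9.57, 9.72, 9.81 and 9.89 in FLT, 8.30, 7.78, 8.07 and 8.76 in FDS, and 8.42, 7.71, 8.51 and 7.75 in VIV. It rose by 1.65 ± 0.22 (SE; limma adjusted p = 0.0101), 3.13-fold, and was the single chemokine gene of 19 that passed, beside 0.64% of all genes. The plasma cell marker Jchain, the joining chain of IgA and IgM, had 7.33, 6.60, 5.57 and 4.87 in FLT, against 3.27, 5.15, 4.16 and 6.09 in VIV. These overlapped (1.42, adjusted p = 0.808). Il1r2, the decoy receptor for interleukin 1 (Entrez 117022, chromosome 9, 49879928 to 49920374), had 6.49, 6.40, 7.20 and 6.50 in FLT, 5.25, 5.13, 5.17 and 5.36 in FDS, and 5.07, 5.44, 4.99 and 5.03 in VIV, a rise of 1.52 ± 0.17 (limma adjusted p = 0.00283). Aqp9, a channel for water and glycerol, had 6.14, 6.84, 7.24 and 6.71 in FLT, against 5.33, 5.11, 4.80 and 4.91 in VIV, a rise of 1.70 ± 0.28 (adjusted p = 0.0178).

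Other genes by the same rule were Fibin, a secreted protein gene (1.81), Vwc2, a secreted BMP antagonist (1.63), Mgat4a, which branches N-glycans (1.61), Arhgap9, a gene active in blood cells (1.56), and Bbox1, the last enzyme of carnitine synthesis (1.49); all rose (limma adjusted p from 0.0101 to 0.0419). Prr15l was the single luminal marker of 16 that passed, beside 0.64% of all genes. It had 7.10, 7.21, 7.27 and 6.78 in FLT, against 5.87, 6.19, 5.52 and 5.81 in VIV, a rise of 1.24 ± 0.22 (limma adjusted p = 0.0265). For Fibin the FDS arrays, 5.45 to 5.75, lay near the FLT arrays, 5.53 to 6.56, and above the VIV arrays, 3.57 to 4.68. FLTC, which carried the keratinocyte markers, was the highest flight array for Arhgap9, Il1r2, Aqp9, Mgat4a, Fibin and Prr15l. FLTC was also highest for Fkbp5, Nfil3, Cdkn1a, Mt2A, Slc25a1, Acaca and Gpat4. The part of skin cells in any of these rises was not tested. FLTB, with a keratinocyte marker mean of 5.06, stayed in the fits without FLTC given below. Another flight array was highest for Sftpd, Cldn1, Ccl28, Vwc2, Bbox1, Npas2 and Bmal1. Without FLTC Il1r2 had 1.33 (adjusted p = 0.00703), Cldn1 2.00 (0.0314), Sftpd 2.01 (0.00703), Ccl28 1.63 (0.0387), Fibin 1.61 (0.0319) and Mgat4a 1.49 (0.0391), all still past the test. Arhgap9 had 1.36 (0.0877), Aqp9 1.52 (0.0658), Prr15l 1.18 (0.102), Vwc2 1.62 (0.123) and Bbox1 1.38 (0.151) without it and did not pass. The other probe sets of Fibin (0.13), Mgat4a (0.25) and Bbox1 (0.92) did not pass either, with all arrays.

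The keratinocyte markers themselves were higher in FLT in 8 of 8 genes with a median of 0.61, and 0 passed. Krtdap, a gene of differentiating epidermis, had 2.83, 5.91, 9.67 and 2.82 in FLT, against 3.01, 2.87, 2.69 and 2.47 in VIV (2.55 ± 1.12, SE; limma adjusted p = 0.489). Sftpd, Cldn1, Ccl28, Il1r2, Fibin and Mgat4a kept their calls without any single array. Without VIVA and VIVC Sftpd and Ccl28 kept theirs (both adjusted p = 0.0174), and Cldn1 and Il1r2 did not (0.0665 and 0.0707) with differences of 2.12 and 1.41. Fibin and Mgat4a also lost theirs (0.0957 and 0.0695), with differences of 1.383 and 1.775 against 1.811 and 1.612 with all arrays. The correlation of Fibin with the muscle markers over the adipose arrays was 0.79, just under the cut of 0.8. Aqp9, Vwc2, Arhgap9, Bbox1 and Prr15l lost theirs without any 1 of 6 to 9 arrays, mostly FLT and VIV arrays (adjusted p up to 0.0703, 0.125, 0.0877, 0.151 and 0.102 in that order).

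Outside the clock, the genes that fell were varied. Exoc3l2, a relative of the exocyst tethering complex (Entrez 686809, chromosome 1, 88241784 to 88273352), had 4.73, 4.72, 4.42 and 4.93 in FLT, 4.62, 5.44, 5.44 and 6.27 in FDS, and 6.58, 6.28, 6.72 and 6.95 in VIV. It fell by 1.93 ± 0.27 (SE; limma adjusted p = 0.0105), 3.81-fold lower in FLT and the largest fall among the 91 genes. Scgb1d2-ps1, annotated as a secretoglobin pseudogene (Entrez 100362601), had 8.16, 7.38, 7.78 and 7.90 in FLT, 8.84, 7.93, 8.17 and 9.11 in FDS, and 9.16, 9.56, 9.59 and 10.19 in VIV, a fall of 1.82 ± 0.28 (limma adjusted p = 0.0139). A near-identical secretoglobin copy could share its probes. Slc14a1, the urea transporter UT-B (Entrez 54301, chromosome 18, 73840568 to 73883925), had 8.01, 7.34, 7.39 and 6.91 in FLT, 8.37, 7.91, 7.51 and 8.23 in FDS, and 9.20, 8.99, 8.75 and 8.92 in VIV. It fell by 1.56 ± 0.23 (adjusted p = 0.0113), while its other probe set had 0.04. In all 3 the FDS arrays lay between, overlapping FLT.

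Gria2, an AMPA glutamate receptor subunit, had 4.22, 3.54, 3.34 and 3.24 in FLT, 5.62, 5.40, 4.57 and 4.58 in FDS, and 4.56, 5.25, 5.24 and 5.38 in VIV, a fall of 1.52 ± 0.28 (SE; limma adjusted p = 0.0355). Here FDS lay with VIV, and the other Gria2 probe set had -0.18 (adjusted p = 0.87). The transcriptional corepressor Runx1t1 (-1.30), the acetyltransferase gene Nat8f5 (-1.27), the RNA-binding protein gene Cpeb1 (-1.25), the liprin gene Ppfibp2 (-1.21) and Cachd1 (-1.18) also fell (limma adjusted p from 0.0157 to 0.0451). Cachd1 lay at 5.45 on VIVA, against 6.36 to 6.44 on the other VIV arrays and 4.88 to 5.06 in FLT, and its 2 other probe sets had 0.06 and 0.13. Hsd17b7, an enzyme of estradiol and cholesterol synthesis (Entrez 29540), had 5.38, 5.16, 5.11 and 5.60 in FLT, 6.20, 5.49, 6.06 and 5.99 in FDS, and 6.40, 6.77, 6.20 and 6.81 in VIV. It fell by 1.23 ± 0.18 (adjusted p = 0.0127), and its other probe set fell by 0.78. Hsd17b7 was the single cholesterol synthesis gene of 18 that passed, beside 0.64% of all genes. Exoc3l2 and Slc14a1 kept their calls without any single array; Scgb1d2-ps1 lost it without FLTB or FLTC (adjusted p up to 0.052), Hsd17b7 without FLTC or VIVD (up to 0.0546), and Gria2, Runx1t1, Nat8f5, Cpeb1, Ppfibp2 and Cachd1 without any 1 of 4 to 8 arrays (up to 0.151). Without VIVA and VIVC none of the genes of this and the preceding paragraph stayed under 0.05, and their differences ran from -1.21 for Cpeb1 to -2.07 for Scgb1d2-ps1 (adjusted p from 0.0523 to 0.213).

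No milk protein gene passed the test. Csn2, beta-casein, had 13.33, 13.21, 13.26 and 13.31 in FLT, against 13.31, 13.26, 13.32 and 13.31 in VIV, a difference of -0.02 ± 0.12 (SE; limma adjusted p = 0.994). Wap, whey acidic protein, had 13.44 to 13.59 in FLT and 13.26 to 13.50 in VIV (0.11, adjusted p = 0.904), and Lalba, alpha-lactalbumin, 12.56 to 12.84 and 12.24 to 12.82 in FLT and VIV (0.26, adjusted p = 0.907). Signals this high may understate a change, which was not tested. These values therefore do not show that the genes were unaffected. Lpo, lactoperoxidase, had 8.90, 9.47, 9.68 and 9.01 in FLT, against 8.60, 7.47, 8.83 and 8.12 in VIV (1.01, adjusted p = 0.246). Elf5, the alveolar master regulator, had a difference of 0.09 (adjusted p = 0.942) and Prlr, the prolactin receptor, -0.44 (adjusted p = 0.453). Of 9 milk protein genes and 16 alveolar and prolactin signalling genes, 0 passed in each, beside 0.64% of all genes. At that share, lists this short would mostly hold none.

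Of 50 gene lists, 39 held no gene that passed, among them cell cycle, respiratory chain, ribosomal protein, interferon, unfolded protein response and heat shock genes. With 0.64% of all genes passing, lists of this length would mostly hold none, so an empty list says little about its genes. Some leaned 1 way without a call. Heat shock genes were lower in FLT in 13 of 14 (median -0.27, against -0.02 over all genes), and VIVC had the highest mean of the list among FLT and VIV arrays, 9.77, against 8.42 to 8.77 in FLT and 8.37 to 8.98 on the other VIV arrays. Interferon response genes were lower in 17 of 19 (median -0.18). Of 15 endothelial and pericyte genes, 5 lay below VIV without overlap, beside 6.32% of all genes, led by Flt1, a VEGF receptor, with 4.89, 4.56, 4.92 and 4.70 in FLT, against 5.33, 5.13, 5.88 and 5.51 in VIV (-0.69, limma adjusted p = 0.205). The other Flt1 probe sets had -0.14 and -0.19. Adipocyte markers were higher in FLT in 17 of 20 (median 0.31), and without VIVA and VIVC their median was 0.08.

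The flight control arrays give a second set of values for the same genes; as FLT−VIV and FLT−FDS share the flight arrays, neither is independent of the other. Against FDS, 114 probe sets passed (0.367%), 84 higher (0.271%) and 30 lower (0.0966%) in FLT, in the same limma fit, and by gene 0.513% passed, 0.373% higher and 0.141% lower. Of the 91 genes that differed from VIV, 36 also passed against FDS in the same direction. Against FDS, Sftpd rose by 2.11 ± 0.19 (SE; adjusted p = 0.00221), Fkbp5 by 1.96 (0.00479), Cldn1 by 1.85 (0.0113), Ccl28 by 1.52 (0.0171), Cdkn1a by 1.49 (0.00677), Il1r2 by 1.42 (0.00589), Acaca by 1.00 (0.0201) and Slc25a1 by 0.93 (0.0334). The 7 clock genes did not pass against FDS: the differences were 1.03 for Nfil3, 0.63 for Bmal1, 0.62 for Npas2, -0.73 for Per3, -0.42 for Dbp, -0.05 for Hlf and 0.26 for Tef (adjusted p from 0.0825 to 0.922). Between FDS and VIV 1 probe set passed (0.00322%), an Hlf probe set lower in FDS (adjusted p = 0.0218), with 2851 (9.18%) under 0.05 before adjustment. Whether the FLT−VIV and FLT−FDS differences of any 1 gene differ from each other is the FDS−VIV comparison, in which Tef had -1.69 (adjusted p = 0.097), Dbp -1.50 (0.303) and Hlf -1.09 (0.117).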

How the data were processed

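RNA was measured on rat expression arrays. Per the labels, mammary RNA was extracted with TRIzol and amplified with the NuGEN Ovation system from 25 ng. The values are log2 signals that the authors deposited, made with RMA per the submitters' processing notes; its version and which arrays were processed together are not given in the sources used here. Quantile normalization in RMA equalises array distributions, so a broad shift of all genes would not show. Of 72 columns 0 were left unused. Of 31042 probe sets 20826 had 1 gene symbol in the platform annotation, 436 several and 9780 none; symbols were updated through Entrez identifiers to RefSeq (20758 matched), and 14217 genes had a probe set.

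The 12 FLT, FDS and VIV arrays were fitted with limma 3.58.1 (R 4.3.3; group means, eBayes, two-sided, Benjamini-Hochberg over all probe sets, threshold 0.05). Precision is limited by 4 arrays a group, and signals near or below the array medians give approximate folds. The fit was tested on simulated data with the means and spreads of these arrays and independent noise for each probe set. Differences shared by many genes of an array, such as the muscle markers on VIVA and VIVC, were not simulated. The simulation therefore cannot speak to them. No set test was run. Members and lists (50 lists, 803 of 914 entries measured) were chosen with earlier results of these data known.

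Named were the 14 largest changes in each direction among genes past the test outside the muscle-linked set and without overlap, the same with up to 6 inside it (filled to 5 by smallest p), up to 4 genes past the test of each list or otherwise 2 by smallest p, a few milk and muscle genes always, and some chosen after their values were seen (Bmal1, Nr1d1, Rora, Clock, Per2, Fasn, Elovl6, Lpin1, Mt1, Sgk1, Tsc22d3, Ano5 and those of the observations). Other genes given as single values come from the lists. Alternatives left out arrays, changed the arrays, scaling, weights, filter, call rule and muscle definition, or added the muscle marker mean or the letter as a term.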

Additional observations from a re-analysis of the deposited data

Results flagged for a closer look

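In groups of 4 arrays, an array was singled out where its gap to the nearest other array, as a share of the group's range, exceeded Dixon's 95% critical value. Chance does this in about 1 in 20 groups, and 17 of 242 groups tested were singled out.

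Among genes past the test, 8 had such an array. VIVC stood high for Cdkn1a at 7.60 and for Trim16 at 8.64, in both below every FLT array. VIVA stood high for Cldn1 at 6.60 and low for Cachd1 at 5.45. VIVD was low for Bmal1 at 3.13. FLTC was high for Arhgap9 at 6.27 and for Il1r2 at 7.20, and FLTA was high for Tef at 7.51, still below every VIV array.

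Among list means, FLTB was high for hepatocyte markers at 4.70 and for immediate early genes at 7.81, and FDSB for unfolded protein response genes at 9.64 and antigen presentation genes at 8.97. VIVB was high for neutrophil and mast cell markers at 4.52, VIVD high for hepatocyte markers at 3.74 and low for p53 and apoptosis genes at 6.58, and VIVA high for glycolysis genes at 8.57 and low for matrix protease genes at 5.60.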

How the results depend on the processing

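Counts of probe sets past the limma test were 153 in FLT−VIV (151 outside and 2 in the muscle-linked set), 114 in FLT−FDS and 1 in FDS−VIV. Leaving out 1 array at a time gave 38 to 244, 37 to 242, 1 to 4, 14 to 185 and 0 to 8 in that order. Without VIVA and VIVC the counts were 11, 11, 0, 33 and 0, and with only the groups compared 414, 411 and 3, with 23 in FLT−FDS and 0 in FDS−VIV. With both changes, added after seeing the data, they were 48, 47 and 1, and 0 in FDS−VIV. With the muscle marker mean as a covariate they were 22, 22, 0, 58 and 0, and with array weights 749, 744 and 5, with 2 in FDS−VIV. Requiring 1 log2 unit gave 85 and 83, and 52 in FLT−FDS. The trend and robust setting gave 3 in FDS−VIV. The filter on low values gave 1 in the muscle-linked set and 204 in FLT−FDS, median centring gave 208 in FLT−FDS and 5 in FDS−VIV, and quantile normalization gave 1 in the muscle-linked set and 0 in FDS−VIV. Linking muscle over mammary arrays left 0 in that set. The letters A to D were not treated as pairs. Same-letter deviations correlated at -0.153 to -0.066 between FLT and VIV and at most at 0.083 between any groups. Letters matched best with themselves only for C in FLT and FDS and for B in FDS and VIV. These correlations cannot exclude a pairing, as other differences between arrays can outweigh it. The replicate block gave 91, 90, 1, 43 and 0. Of 46 named genes past the test, 17 kept their call without each single array, and 6 without VIVA and VIVC. Differences that changed sign were all of genes that had not passed: Csn2 (-0.039 to 0.00 without single arrays, 0.00 being without FLTB; 0.001 with the covariate), Mb (0.196 without VIVA and VIVC, 0.179 with the covariate), Atp2a1 (0.007 without VIVA and VIVC), Per2 (-0.395 to 0.033 without single arrays, positive without VIVC; 0.196 as the mean of its probe sets) and Tsc22d3 (-0.063 to 0.297 without single arrays, negative without VIVA and, at -0.034, without FLTD). The causes were not tested. Genes with signals below the array medians, such as Vwc2, have the least certain folds, as no background measure was used here.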

Other observations

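The 50 lists hold 765 of the 14217 genes, so most genes are in no list. Of the 91 genes past the test in FLT−VIV, 74 were in none of them. Those in this paragraph and the next were chosen after their values were seen. Ggt1, which cleaves extracellular glutathione and is active in lactating mammary gland, had 7.70, 8.06, 7.96 and 7.94 in FLT, 7.02, 6.36, 6.60 and 6.62 in FDS, and 6.69, 6.43, 6.80 and 6.32 in VIV, a rise of 1.36 ± 0.15 (SE; limma adjusted p = 0.00285). Gpt2, the mitochondrial alanine aminotransferase, had 11.43, 11.60, 11.59 and 11.29 in FLT, 10.05, 9.81, 9.95 and 10.53 in FDS, and 10.31, 10.09, 10.52 and 10.29 in VIV, a rise of 1.17 ± 0.16 (adjusted p = 0.00884). Both kept their calls without any single array (adjusted p up to 0.0196 and 0.0387), and Ggt1 also without VIVA and VIVC (0.0213), where Gpt2 had 0.0695. Mertk, a receptor for the uptake of dying cells, rose by 1.02 ± 0.16 (adjusted p = 0.0166; up to 0.0587 without any of 7 arrays), and Nrp2, a semaphorin and VEGF co-receptor, fell by 1.06 ± 0.17 (adjusted p = 0.0157; up to 0.0666 without any of 5 arrays). The other Gpt2 probe set had 0.89 (adjusted p = 0.215), the other Mertk probe set 0.27 and the other Nrp2 probe set -0.04.

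Further single genes with known roles passed, and no list of such genes was measured. Tctn3, of the ciliary transition zone, had 6.18, 6.31, 6.24 and 6.45 in FLT, 7.05, 6.85, 7.45 and 7.31 in FDS, and 7.15, 7.08, 7.05 and 7.30 in VIV, a fall of 0.85 ± 0.14 (SE; limma adjusted p = 0.0162). Ift172, of intraflagellar transport, fell by 0.62 (adjusted p = 0.0265) and Ccdc65, of the axoneme, by 0.83 (0.0352), while Odad4, of dynein arm docking, rose by 1.18 (0.0243). Tdp1, which removes trapped topoisomerase 1, fell by 0.84 (0.0379) and Parp2, a DNA strand break sensor, by 0.57 (0.0385), and Dclre1b, a telomere nuclease gene, rose by 0.99 (0.0265), as did its other probe set (1.17). Each of these 7 lost its call without any of 5 to 9 arrays, with adjusted p up to 0.137.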
